A study of Mus musculus with 41 samples.

Results

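The MHC class I antigen presentation genes were taken as the rows of the deposited matrix with the symbols H2-K1, H2-D1, B2m, Tap1, Tap2, Tapbp, Psmb8, Psmb9, Psmb10 and Nlrc5. All 10 were found among 47480 gene symbols, and all 10 passed the filter on low values. RNA had been sequenced from 41 mouse mammary tumors, 28 of genotype Plk2-/-; p53-/- and 13 of genotype p53-/-. All were in the Balb/c background and had grown untreated in the mammary fat pad of syngeneic hosts, which keep their immune system. Both groups therefore lack p53, and the contrast is the added loss of Plk2, a polo-like kinase. Plk2-/- mice had been backcrossed to Balb/c before they were bred with p53-/- mice, and tumors arose from transplanted mammary epithelial cells. Tumors were passaged by transplantation, so several of the 41 may be related, and p-values measure the spread between these samples. Ages are not given in the sources used here. Claudin-low tumors were PLK2null-743, PLK2null-733, PLK2null-732 and, of the p53-/- genotype, T11. They are of a subtype that lacks epithelial junction genes.

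MHC class I molecules show peptides from inside a cell to CD8+ T cells and natural killer cells. A heavy chain (in mice mainly H2-K and H2-D) pairs with beta-2 microglobulin, and the proteasome, the TAP transporter and tapasin supply and load the peptide. Interferon gamma raises most of these genes and swaps 3 catalytic subunits of the proteasome for the immunoproteasome subunits encoded by Psmb8, Psmb9 and Psmb10. NLRC5 is the transactivator of class I promoters, as CIITA is of class II promoters. Tumors are known to lose class I expression in part or in whole, and single tumors with low values were looked for here.

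Values are on a linear scale, set by the authors to an upper quartile of 1000 over the genes detected in a tumor. Implied depth was 29409609 to 70868125 fragments per tumor, and 3 reads, the floor of detection, were worth 1.16 to 2.45, far below every value of the 10 genes. Plk2 itself was at 36.6 to 553 in the Plk2-/-; p53-/- tumors and at 186 to 8028 in the p53-/- tumors. The lowest of the latter was in the library labelled p53null-7435, inside the range of the other genotype. All p53-/- titles carry the name ROSEN with a number, which no Plk2-/-; p53-/- title carries. The labels do not say what it stands for. If it marks a batch, batch and genotype cannot be told apart. In the claudin-low Plk2-/-; p53-/- tumors the summed level of 6 epithelial markers (Epcam, Krt8, Krt18, Cdh1, Cldn3, Cldn7) was 45.7 to 291, against 13539 to 119162 in the 25 others. T11 had Epcam at 81.4 and Cdh1 at 61.9 but kept Krt8 at 11057 and Krt18 at 22508.

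The class I reads carry a limit, and whether it is equal in all tumors was not tested. Balb/c mice have the d haplotype of the MHC and the mm10 genome comes from C57BL/6J, which has the b haplotype, so reads of H2-K1 and H2-D1 were placed on alleles of another strain. H2-K1, H2-D1 and the H2-Q genes are also near-identical copies that share reads, and their values are uncertain to that extent. The size of either effect was not tested.

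The genes lie on 3 chromosomes of GRCm38 (mm10). In the GENCODE vM21 annotation, Tapbp (33915899 to 33929292), H2-K1 (33996017 to 34000347), Psmb9 (34181987 to 34187764), Tap1 (34187553 to 34197225), Psmb8 (34197721 to 34201454), Tap2 (34203527 to 34216321) and H2-D1 (35262730 to 35267499) are on chromosome 17 in the MHC. B2m is on chromosome 2 (122147686 to 122153083), and Nlrc5 (94434356 to 94527272) and Psmb10 (105935735 to 105938444) are on chromosome 8. Tap1 and Psmb9 point away from each other, and in RefSeq their first bases lie 225 bases apart on opposite strands. In GENCODE the pair overlap by 212 bases, and 748 bases of Nlrc5 overlap 9330175E14Rik on the opposite strand. The library kit is not stated to keep strand, so reads from such overlaps cannot be told apart.

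Promoter sequence is shown as description. H2-K1 and H2-D1, which share reads, varied together across the tumors, and B2m, which must pair with both, followed them less closely. Whether promoter sequence has a part in this was not tested. The RefSeq promoter table for GRCm38.p6 held 8 of the 10 genes, all but Tap2 and Nlrc5. The 250 bases before each start were searched on both strands for GAANNGAAA (IRF-type), TTCNNNGAA (a GAS), GGGANTNCC (kappaB-type) and TGACGC (X2-type), where N is any base. These letters are in 6.31, 7.02, 3.36 and 6.12% of all 32851 promoter windows of the same length. The windows below read 5′ to 3′ toward the gene, with matches in capitals. H2-K1 is chr17:34000348-34000597 on the minus strand and B2m is chr2:122147437-122147685 on the plus strand, cut by 1 base at its annotated start.
H2-K1: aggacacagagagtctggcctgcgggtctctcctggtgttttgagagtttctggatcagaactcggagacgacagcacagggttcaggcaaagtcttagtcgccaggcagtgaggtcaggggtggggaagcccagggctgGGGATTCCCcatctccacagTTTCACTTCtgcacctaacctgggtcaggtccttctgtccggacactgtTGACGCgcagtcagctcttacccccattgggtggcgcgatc
B2m: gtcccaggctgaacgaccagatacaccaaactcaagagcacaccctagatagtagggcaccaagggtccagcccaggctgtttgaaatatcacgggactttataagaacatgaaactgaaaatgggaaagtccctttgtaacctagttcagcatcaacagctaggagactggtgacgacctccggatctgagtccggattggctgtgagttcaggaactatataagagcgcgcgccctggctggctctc

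The H2-K1 window held the kappaB-type, IRF-type and X2-type letters, and so did the H2-D1 window, of which all 250 bases lie in an exon of GENCODE vM21. Windows of Tap1, Psmb8 and Psmb9 also lie wholly in annotated exons, and for these genes the window before the RefSeq start is not free of transcribed sequence. The 29 bases from the kappaB-type to the IRF-type match were set side by side for both genes (chr17:34000429-34000457, minus strand, and chr17:35262924-35262952, plus strand), with the matches in capitals. They differ at 1 base, A17T, counted from 1 at the 5′ end with the H2-K1 base first.
H2-K1: GGGATTCCCcatctccacagTTTCACTTC
H2-D1: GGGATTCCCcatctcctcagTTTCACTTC
The B2m, Tap1, Psmb9, Tapbp and Psmb10 windows held none of these letters, and Psmb8 held a GAS-type match. The B2m window has gaaactgaaa, whose gap between GAA and GAAA is wider than the IRF-type letters allow, and wider gaps were not searched. No match says only that these letters are not in the window searched.

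Per kilobase of annotated exon, B2m was the most abundant of the 10 genes, with a median of 38106 over the 41 tumors, followed by H2-D1 at 7837 and H2-K1 at 6041. Tapbp followed at 1910.4, then Psmb8 at 988, Tap2 at 677, Psmb10 at 559, Tap1 at 385, Psmb9 at 219 and Nlrc5 at 99.0. B2m was above H2-D1 in 41 of 41 tumors and Tap1 above Psmb9 in 41 of 41. The order of Tapbp over Psmb8 held in 40 tumors, of H2-K1 over Tapbp in 39, of H2-D1 over H2-K1 in 38 and of Psmb9 over Nlrc5 in 34. It was least fixed among Psmb8, Tap2, Psmb10 and Tap1, with Psmb10 above Tap1 in 25 of 41 tumors, Tap2 above Psmb10 in 30 and Psmb8 above Tap2 in 33.

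**Figure D1:**
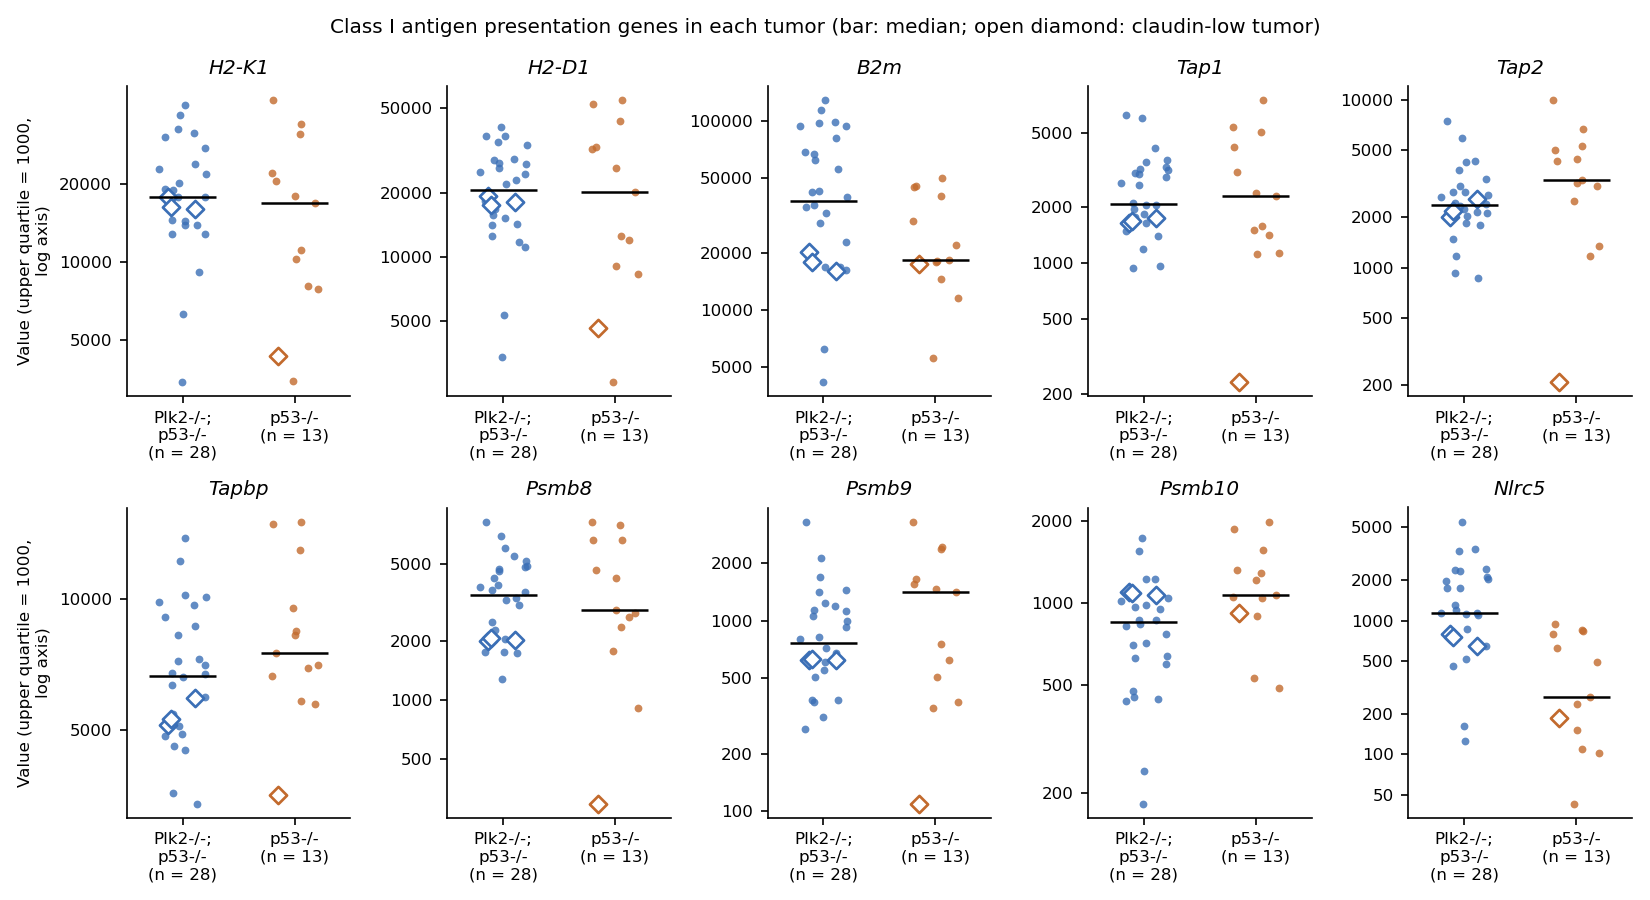
Value of each of the 10 genes in each tumor (vertical log axis, upper quartile of a tumor = 1000) by genotype. Points are tumors, bars are medians and open diamonds are claudin-low tumors. Nlrc5 had a median of 1134 in the 28 Plk2-/-; p53-/- tumors and 268 in the 13 p53-/- tumors, and T11 is the lowest diamond for Tap1, Tap2, Psmb8 and Psmb9.

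The first comparison asked which of the genes differed with the loss of Plk2. Nlrc5, the class I transactivator, was higher in the Plk2-/-; p53-/- tumors, and no other of the 10 genes passed the test. Nlrc5 was at a lowest value of 126, a median of 1134 and a highest value of 5474 in the Plk2-/-; p53-/- tumors, and at 43.0, 268 and 937 in the p53-/- tumors. The groups overlapped, but 17 of 28 Plk2-/-; p53-/- tumors lay above every p53-/- tumor, and 26 of 28 lay above the p53-/- median. The difference in mean log2(value + 1) was 1.91 (SE 0.424, 95% interval 1.05 to 2.76), a 3.75-fold higher level (limma, Benjamini-Hochberg adjusted p = 0.00036 over 17208 genes). By the same test 24.3% of the 17208 genes were higher and 15.3% were lower, and 6 of the 10 genes had a positive difference, with a median of 0.13 against 0.10 over all genes. The share of 1 call in 10 genes is below that among all genes. When tumors were rescaled by trimmed-mean (TMM) factors, the calls over all genes moved from 4175 higher and 2627 lower to 3224 higher and 3711 lower. That scaling moved the median difference of all genes from 0.10 to -0.05, and Nlrc5 to 1.76 (adjusted p = 0.00097).

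The Nlrc5 call was lost in a smaller set of tumors. With only 7 Plk2-/-; p53-/- tumors, those whose numbers match primary tumors in the study's latency plot (the labels do not call them primary), against the 13 p53-/- tumors, the difference was 1.55 (limma, adjusted p = 0.114). It was 2.03 (limma, adjusted p = 0.00022) without p53null-7435, and it passed the test with each of the 41 tumors left out in turn, at 1.67 to 2.04. Leaving out single tumors does not remove groups of related tumors. Whether tumor number or relatedness lay behind the lost call was not tested. The antisense gene 9330175E14Rik, which overlaps the Nlrc5 start, had the pattern most like Nlrc5 of all genes outside the lists used here (Pearson r = 0.918 over 41 tumors).

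H2-K1 and H2-D1, the heavy chains, varied more within each genotype than between them. H2-K1 was at 3423 to 40599 (median 17811) in the Plk2-/-; p53-/- tumors and at 3466 to 42277 (median 16912) in the p53-/- tumors. The difference was 0.34 on the log2 scale (95% interval -0.25 to 0.92, limma adjusted p = 0.378). H2-D1 was at 3384 to 40707 (median 20579) and at 2586 to 54583 (median 20211), a difference of 0.18 (95% interval -0.50 to 0.86, limma adjusted p = 0.700). A missed threshold therefore does not show that the genotypes are alike in H2-K1 or H2-D1.

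B2m, the light chain of every class I molecule, had the widest range of the abundant members. It was at 4157 to 129327 (median 37828) in the Plk2-/-; p53-/- tumors and at 5563 to 50172 (median 18411) in the p53-/- tumors. In 11 of 28 Plk2-/-; p53-/- tumors B2m lay above every p53-/- tumor, while the lower ends of the groups overlapped. These 11 were PLK2null-7750, PLK2null-1984, PLK2null-1985, PLK2null-1986, PLK2null-7753, PLK2null-1987, PLK2null-1988, PLK2null-1989, PLK2null-1977, PLK2null-1980 and PLK2null-1981. They include the closest pairs of libraries by chi-square, those among PLK2null-7750, PLK2null-1984 and PLK2null-1986. The rest may be related as well, so the 11 may stand for fewer independent tumors. The difference of 0.72 (SE 0.384, 95% interval -0.06 to 1.49) did not pass the test (limma, adjusted p = 0.134).

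The transporter subunits Tap1 and Tap2, and Tapbp (tapasin, which holds the heavy chain at the transporter), did not pass the test either. Tap1 was at 947 to 6234 (median 2081) in the Plk2-/-; p53-/- tumors and at 231 to 7462 (median 2301) in the p53-/- tumors, a difference of 0.13 (95% interval -0.48 to 0.75). Tap2 was at 871 to 7459 (median 2349) and at 209 to 9919 (median 3335), a difference of -0.25 (95% interval -0.90 to 0.40). Tapbp was at 3383 to 13764 (median 6647) and at 3539 to 15033 (median 7490), a difference of -0.26 (95% interval -0.63 to 0.10). The lowest p53-/- value of all 3 genes belonged to T11.

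Of the immunoproteasome genes, Psmb8 was at 1281 to 8152 (median 3466) in the Plk2-/-; p53-/- tumors and at 296 to 8197 (median 2898) in the p53-/- tumors, a difference of 0.13 (95% interval -0.50 to 0.76). Psmb9 was at 270.5 to 3317 (median 762) and at 110 to 3319 (median 1411), a difference of -0.21 (95% interval -0.91 to 0.49). Psmb10 was at 184 to 1740 (median 853) and at 486 to 1993 (median 1072), a difference of -0.52 (SE 0.232, 95% interval -0.99 to -0.05). Psmb10 missed the threshold (limma, adjusted p = 0.071) and passed it under TMM factors (-0.66, adjusted p = 0.027), under quantile normalization (-0.60, adjusted p = 0.044) and without the claudin-low tumors (-0.60, adjusted p = 0.049). It also passed without PLK2null-1987 (-0.56, adjusted p = 0.046), without p53null-10151 (-0.62, adjusted p = 0.033) and without p53null-5317 (-0.61, adjusted p = 0.038).

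**Figure D2:**
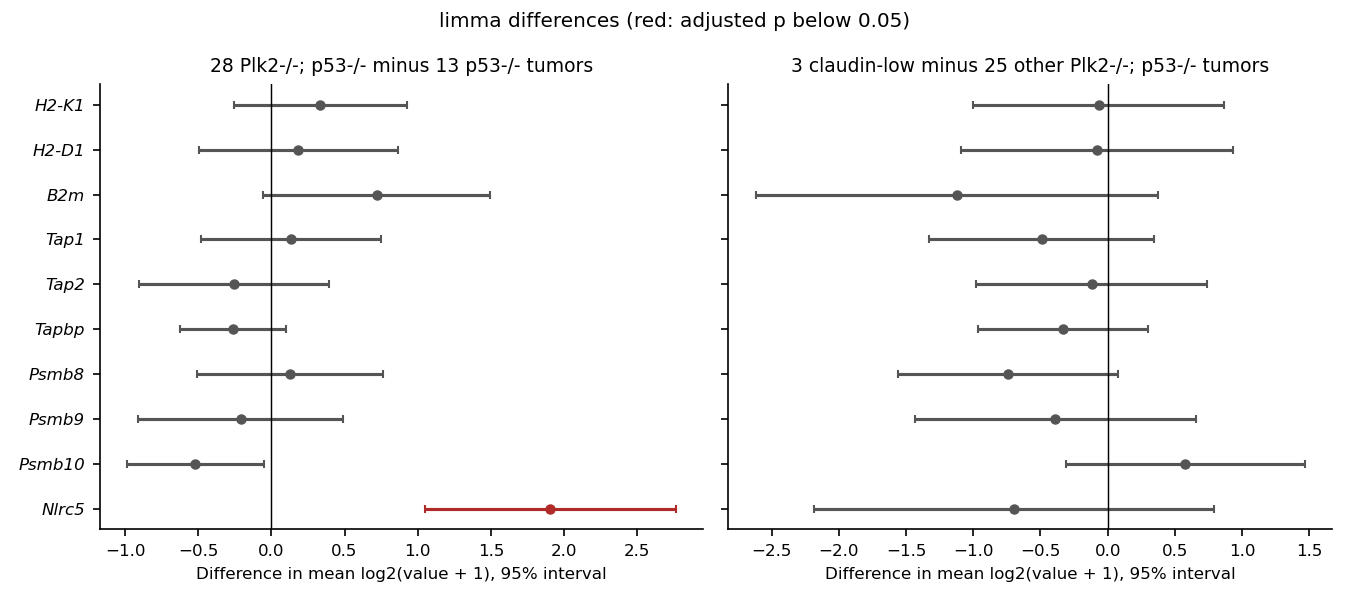
Difference in mean log2(value + 1) with its 95% interval from limma for the 10 genes, by genotype (left) and for claudin-low against the other Plk2-/-; p53-/- tumors (right), red where the adjusted p was below 0.05. Nlrc5 by genotype, at 1.91, is the only red point.

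The other genes of the pathway were described by lists. Of 18 further class I genes tested, 3 (16.7%) were higher in the Plk2-/-; p53-/- tumors and none lower, against 24.3% and 15.3% of all genes, with a median difference of 0.44 against 0.10 for all genes. These were H2-Q10 (1.26, adjusted p = 0.00078), H2-Q5 (0.93, adjusted p = 0.043) and H2-Q4 (0.77, adjusted p = 0.020), heavy chains of the Q region that share reads with their neighbours. Under TMM factors 1 was higher and 1 lower, and under quantile normalization 2 were higher and 1 lower. With the 7 primary tumors alone no gene of this list passed the test.

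Of 8 proteins that bind MHC promoters, 3 (37.5%, against 24.3% of all genes) were higher in the Plk2-/-; p53-/- tumors, with Rfx5 (0.82, adjusted p = 1.8e-05), Creb1 (0.54, adjusted p = 5.4e-05) and Nfya (0.37, adjusted p = 0.010). Under TMM factors 2 of the list were higher and 1 lower, and under quantile normalization 3 and 1. RFX5 and NF-Y are parts of the enhanceosome that carries NLRC5 and CIITA. Ciita itself was at a difference of 0.90 (SE 0.385, adjusted p = 0.059). Of 8 genes of the interferon gamma pathway tested, only Irf1 was called, at 0.68 higher (SE 0.189, adjusted p = 0.0036), and no gene of this list was called with the 7 primary tumors alone. None of the 4 genes listed as class I silencers (Ezh2, Eed, Suz12, Mecom) passed the test by genotype.

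The constitutive proteasome genes were mostly lower. Of 11 structural core subunits, 10 (90.9%, against 15.3% of all genes) were lower in the Plk2-/-; p53-/- tumors, among them Psmb4 (-1.24), Psma6 (-0.93), Psma7 (-0.77) and Psmb1 (-0.73), and the list's median was -0.50. The count was 10 of 11 under TMM factors and under quantile normalization, and 5 of 11 with the 7 primary tumors alone. Of the 3 catalytic subunits that the immunoproteasome replaces, Psmb5 (-1.14, adjusted p = 1.7e-10) and Psmb7 (-0.55, adjusted p = 0.00051) were lower, and Psmb6 was called lower under TMM factors alone. Of the activator subunits, Psme2 (-0.77) and Psme1 (-0.59), which interferon gamma induces, were lower, and Psme3 (0.39) was higher, a call that was lost under TMM factors. Of 8 loading and trimming genes, Bcap31 (-0.79), an endoplasmic reticulum sorting protein, was lower and Erap1 (0.42), the peptide-trimming aminopeptidase, was higher. The Erap1 call was lost under TMM factors, under quantile normalization, with the 7 primary tumors alone and without the claudin-low tumors.

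Immunoproteasome subunits were also set against the constitutive subunits they replace. The ratio of the Psmb8 to the Psmb5 value had a median of 2.68 in the Plk2-/-; p53-/- tumors (0.785 to 6.60) and of 1.11 in the p53-/- tumors (0.108 to 3.59). The Psmb9 to Psmb6 ratio had medians of 0.192 and 0.246, and the Psmb10 to Psmb7 ratio medians of 0.213 and 0.241. These ratios were not tested. Among markers of other cell types, none of the T cell, cytotoxic, B cell, endothelial, fibroblast or epithelial markers was called by genotype, 1 of 6 macrophage, 1 of 4 leukocyte and 2 of 4 dendritic cell markers were higher, and all 4 skeletal muscle markers were lower. The leukocyte marker called was Ptprc, the CD45 phosphatase (1.17, SE 0.262, limma adjusted p = 0.00037). The summed dendritic cell level had medians of 1742 in the Plk2-/-; p53-/- and 648 in the p53-/- tumors. The dendritic markers called were Itgax (0.96) and Zbtb46 (1.16). Flt3 (-0.25) and Clec9a (0.61) were not called, and Xcr1 was not tested, so the sum does not stand for all 5 markers. The summed leukocyte level was 1364 to 11328 in the Plk2-/-; p53-/- tumors and 2158 to 11687 in the p53-/- tumors. The part of these cells in the Nlrc5 result was not tested, and in bulk tumors fewer cells of a type and less RNA per cell cannot be told apart.

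The second comparison asked whether the claudin-low tumors differed in these genes from the 25 other Plk2-/-; p53-/- tumors. The subtype had been named from clustering of these same libraries, so the test is not independent of how the tumors were chosen. None of the 10 genes passed it (limma over 17153 genes), and 0 of the 10 had an unadjusted p below 0.05. By the same test 20.2% of all genes were higher and 17.1% were lower in the claudin-low tumors.

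The 3 claudin-low tumors were close to each other and in the middle of the range. H2-K1 was at 16004.5, 16358 and 17887 in PLK2null-743, PLK2null-733 and PLK2null-732, against 3423 to 40599 (median 17873) in the others, a difference of -0.07 (SE 0.457, limma adjusted p = 0.927). H2-D1 was at 17568 to 19247 in the same tumors, a difference of -0.08 (95% interval -1.09 to 0.93). B2m was at 16059.6, 17927 and 20281, below the median of 42378 of the others but above the lowest, a difference of -1.12 (SE 0.731, 95% interval -2.62 to 0.38, adjusted p = 0.239). Psmb8 was at 2000.2 to 2088 against a median of 3681, a difference of -0.74 (95% interval -1.56 to 0.08, adjusted p = 0.149). Nlrc5 was at 645 to 791 against a median of 1206, a difference of -0.70 (95% interval -2.19 to 0.79). Psmb10 alone had a positive difference, with 1069 to 1103 against a median of 825 (0.58, 95% interval -0.31 to 1.47).

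With 3 tumors against 25 the intervals were wide, and a missed threshold does not show that the tumors are alike. Markers of several cell types did differ between the claudin-low and the other tumors. All 7 T cell, all 4 B cell and all 6 endothelial markers were called higher in the claudin-low tumors and all 6 epithelial markers lower. The summed T cell markers were at 1045 to 2024 against a median of 190 in the others (66.2 to 2110), and the summed endothelial markers at 165585 to 186496 against 4877 (2572 to 78025). None of the 6 macrophage or 3 neutrophil markers tested was called. In T11, the claudin-low p53-/- tumor, the summed endothelial markers were at 6876. Which cells the marker RNA came from, and their part in the class I values, was not tested.

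Of the 18 further class I genes, 4 (22.2%) were higher and 1 (5.56%) was lower, against 20.2% and 17.1% of all genes. H2-T23, the Qa-1 heavy chain, was lower (-1.56, SE 0.401, adjusted p = 0.0028), with the 3 claudin-low tumors at 1243 to 1914 and the others at 1614 to 11182, so the groups overlapped at their edge. Fcgrt, the neonatal Fc receptor heavy chain (2.90, adjusted p = 8.7e-05), Cd1d1, which presents lipids (1.59, adjusted p = 0.0043), and H2-M3, which presents formylated peptides (1.33, adjusted p = 0.0061), were higher. Of the loading genes Pdia3 (-0.77, adjusted p = 0.022) and Hspa5 (-0.48, adjusted p = 0.020), both chaperones, were lower, calls that were lost when any of the 3 tumors was left out. Of 8 interferon gamma pathway genes 2 were higher, Jak1, a kinase of the interferon receptors (1.17, adjusted p = 2.4e-06), and Ifngr1, a receptor chain (0.73, adjusted p = 0.026), with 1 called under TMM factors. Of the 4 silencers Mecom was higher (3.38, adjusted p = 2.2e-05), and of the 8 promoter-binding proteins Nfya (0.56, adjusted p = 0.0175), a call lost without PLK2null-733 or without PLK2null-743. Of the 11 core proteasome subunits 4 were higher and 1 lower, but 1 and 1 under TMM factors and 0 and 2 under quantile normalization, and none was called without PLK2null-733. Psmb7 was lower (-0.69, adjusted p = 0.0054), a call lost without PLK2null-743, and no activator subunit was called.

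Single tumors were then examined for loss. A value was called low when its log2(value + 1) lay 2 or more below the median of the 41 tumors. Of 410 values of the 10 genes, 21 (5.12%) were low, in 7 tumors, and 9 of the 10 genes were low in at least 1 tumor. By tumor, the share of all genes tested that were low ran from 0.384% in PLK2null-1971 to 12.3% in T11. The share over all tumors together was not counted. Over all 17208 genes tested, 38.7% had at least 1 low tumor. Tapbp, the gene with the narrowest spread (SD 0.542 on the log2 scale), was low in none. Nlrc5, with the widest (SD 1.56), was low in all 7, which were 5 of the 13 p53-/- tumors and 2 of the 28 Plk2-/-; p53-/- tumors. Its median was 268 in the p53-/- and 1134 in the Plk2-/-; p53-/- tumors, so this threshold lies nearer to the usual p53-/- values. The values nearest the threshold were H2-K1 in T11, at -2.04, just inside it, and Psmb10 in PLK2null-1963, at -1.97, just outside.

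**Figure D3:**
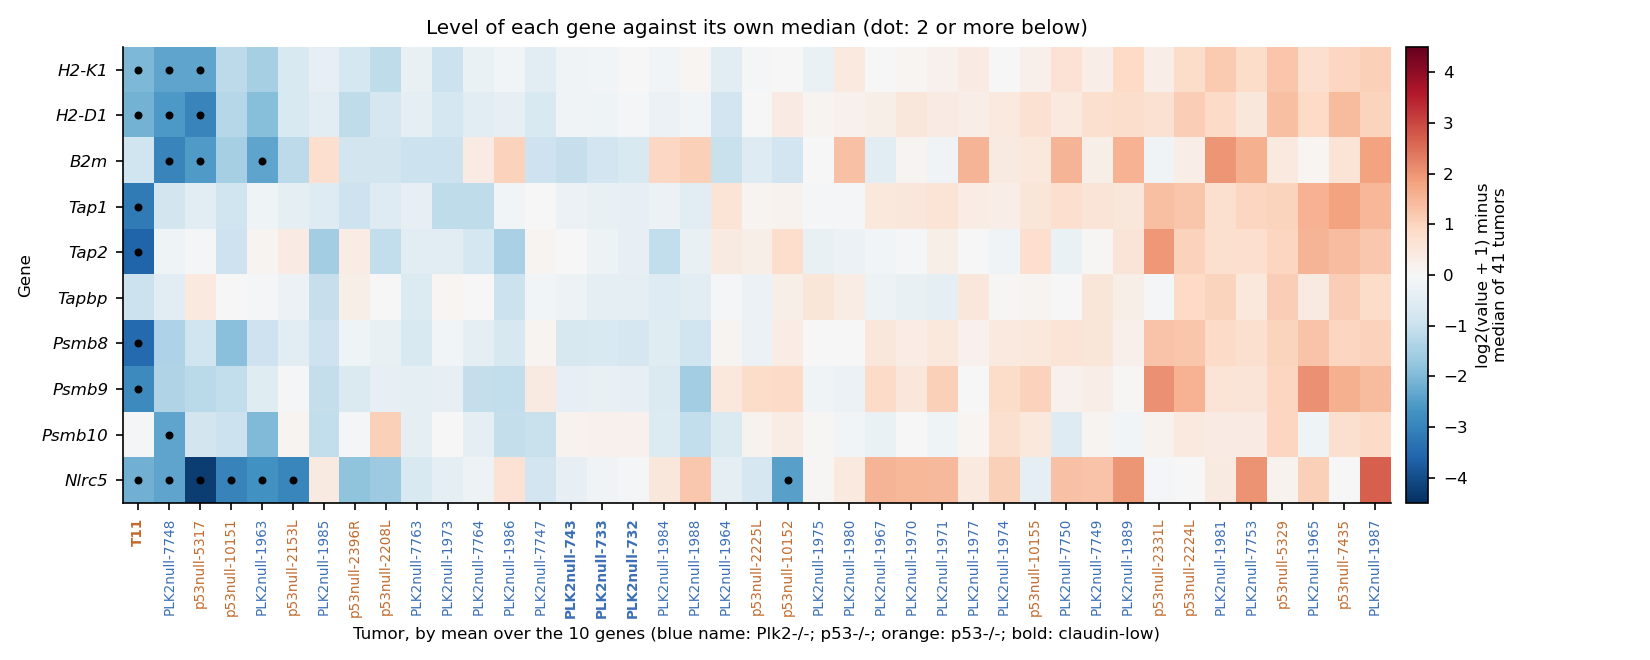
Level of each gene (rows) in each of the 41 tumors (columns, ordered by the mean over the genes) as log2(value + 1) minus its median. Dots mark the 21 values that lie 2 or more below it, of which 7 are in T11, 5 in PLK2null-7748 and 4 in p53null-5317.

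T11 had the lowest mean over the 10 genes (-2.14), with 7 low values, and 12.3% of all genes tested were low in T11 by the same rule. It had the lowest value of all 41 tumors for Tap1, Tap2, Psmb8 and Psmb9, the 4 genes that stand side by side in the MHC. Tap1 was at 231 in T11 and at 1119 to 7462 (median 2341) in the 12 other p53-/- tumors, 10.1-fold below their median. Tap2 was at 209 against 1179 to 9919 (median 3815), 18.3-fold below, Psmb8 at 296 against 910.5 to 8197 (median 3564), and Psmb9 at 110 against 348 to 3319 (median 1438), 13.1-fold below. For each of the 4 genes T11 lay outside the range of the other p53-/- tumors.

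The rest of the pathway in T11 was less affected. H2-K1 was at 4324 and H2-D1 at 4659, 4.03-fold and 4.99-fold below the median of the 12 others, with p53null-5317 lower still. Tapbp was at 3539, the lowest of the 13 p53-/- tumors. B2m was at 17495 (median of the others 20237), Psmb10 at 921 (1143) and Nlrc5 at 189 (381), all within the range of the others. The T11 ratio of B2m to H2-K1 was 4.05, against 1.01 to 2.28 in the 12 other p53-/- tumors, and its Psmb8 to Psmb5 ratio was 0.108 against 0.536 to 3.59. Psmb8, Psmb9, Tap1 and Tap2 were low where Psmb10, the immunoproteasome gene on chromosome 8, was not.

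The low values in T11 were not limited to class I genes. Besides 5 of the 10 members, 19 genes with a mean of at least 10 lie from H2-K1 to Notch4. Of these, 9 were lowest in T11, 1 more (Btnl7-ps, listed at 0) was tied for lowest, and 8 were 2 or more below the median. Over all genes tested, 12.3% were that low in T11, and the share with T11 lowest was not counted. Relative to that median, the class II genes H2-Ab1, H2-Aa and H2-Eb1, which start 70.1 to 118 kb to the right of Tap1, were at -3.02, -3.39 and -3.24, and H2-DMb1, to the left of Psmb9, was at -2.83. In the same region Brd2 was at 0.03, Slc39a7 at 0.66 and Notch4 at -0.24. These neighbours were named after their values were seen. DNA copy number was not analysed here.

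**Figure D4:**
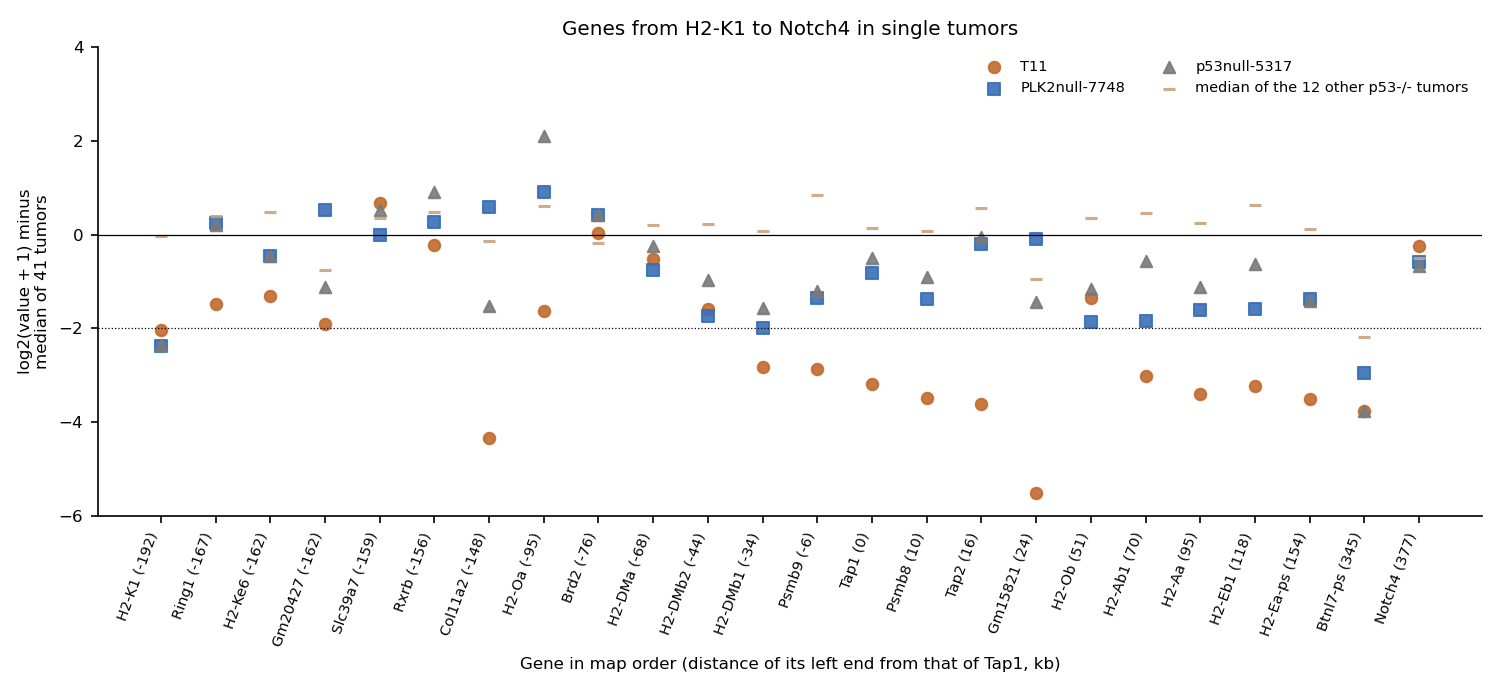
log2(value + 1) minus the median of the 41 tumors (vertical axis) for 24 genes of chromosome 17 in map order, with the distance in kb from the left end of Tap1, for T11, PLK2null-7748, p53null-5317 and the median of the p53-/- tumors without T11. T11 lies below -2.8 from H2-DMb1 through Gm15821 and again at H2-Ab1 to H2-Ea-ps, and near 0 at Brd2 and Notch4.

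Several genes outside the 10 moved in T11 as well, and those named here were chosen after their values were seen. Ciita was at 11.7, the lowest of 41 tumors, with a p53-/- median of 121. Ifngr1, Ifngr2 and Jak2 were at -0.27, -0.05 and -0.09 on the log2 scale relative to the median of the 41 tumors. The summed T cell markers were at 34.2, the lowest of 41 tumors, and the cytotoxic and dendritic sums were each the second lowest. The dendritic markers did not move together. Relative to that median Itgax was at -2.14, Zbtb46 at -0.72, Clec9a at -0.64 and Xcr1 at -0.14. Flt3 was at 3.21, the highest of the p53-/- tumors. The summed leukocyte level was the highest of 41, which came from Laptm5 at 9127, while Ptprc was at 431, the p53-/- median. The part of these cells in the T11 values was not tested.

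PLK2null-7748, of the 7 primary tumors, had a different pattern, with heavy and light chains lower, relative to other tumors, than the transporter genes. H2-K1 was at 3423 and B2m at 4157, each the lowest of 41 tumors, and H2-D1 was at 3384. Against the 27 other Plk2-/-; p53-/- tumors, H2-K1 was 5.22-fold, H2-D1 6.48-fold and B2m 9.57-fold below the median. Psmb10 at 184 was the lowest of 41 and Nlrc5 was at 162, 7.04-fold below. Tap2 at 2229 was close to the median of 2378, and Tapbp at 4894 was above 5 of the 27 others. Tap1 at 1195 was 1.76-fold below the median, above 2 of the 27. Psmb8 at 1281 was the lowest of the genotype, 2.81-fold below, and Psmb9 at 313 was 2.56-fold below, above 1 of the 27. By the rule for low values 5 of the 10 genes were low, and 3.98% of all genes tested.

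p53null-5317 also had low heavy and light chains, with H2-D1 at 2586 and Nlrc5 at 43.0, the lowest of 41 tumors. H2-K1 at 3466 was 5.02-fold, H2-D1 8.99-fold, B2m at 5563 3.64-fold and Nlrc5 8.85-fold below the median of the other 12 p53-/- tumors. Tap1 at 1499 and Tap2 at 2473 were inside the range of the others even without T11, and Tapbp at 9514 was above 9 of the 12. Here 4 of the 10 genes were low, and 6.97% of all genes tested. PLK2null-1963 had 2 low genes, B2m at 6251 and Nlrc5 at 126, and 2.41% of all genes tested were low in it. H2-D1 at 5350.2 and Psmb10 at 243 lay just above the threshold. In p53null-10151, p53null-10152 and p53null-2153L only Nlrc5 was low, at 103, 152 and 110. Set against the median of their own genotype, none of these tumors had a low value.

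Of the 18 further class I genes tested, 9 were low in T11, 9 in PLK2null-7748, 10 in p53null-5317 and 0 in PLK2null-1963. H2-Q7 was at 166 in PLK2null-7748, 103 in p53null-5317 and 179 in T11, where the genotype medians were 1296 and 721. H2-Q genes share reads with H2-K1 and H2-D1, so their values are not independent of the heavy chains. Others were not low, among them Fcgrt in all 3 tumors, at 0 in T11, 0.16 in PLK2null-7748 and 0.49 in p53null-5317 on the log2 scale relative to the median, and Cd1d1 in T11, at 1.22. These genes were named after their values were seen. H2-T23 was at 2584 in PLK2null-7748 and at 4555 in p53null-5317, which is the p53-/- median, and at 414 in T11, the lowest of 41 tumors.

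Sums of some immune cell markers, but not of all, were also low in these tumors. In PLK2null-7748 the summed leukocyte level was 1364 and the macrophage level 5560.4, each the lowest of 41 tumors, and Ptprc was at 359. In p53null-5317 the leukocyte level was 2158, the 3rd lowest, and the cytotoxic sum of 2.71 was the lowest, with Prf1 and Ncr1 listed at 0. PLK2null-1963 had a leukocyte level of 2872, the 8th lowest, but its T cell and dendritic sums ranked 22 and 21 from the lowest of 41. The B cell sums ranked 14 in PLK2null-7748, 21 in p53null-5317 and 28 in PLK2null-1963. The epithelial sums were 51582, 74293 and 41840, against a median of 85986 over all tumors. Within the p53null-5317 sum, Krt8 was at 198 and Epcam at 32431. The part of immune cells in the low class I values was not tested.

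At the other end, PLK2null-1987 had the highest mean over the 10 genes (1.34), followed by p53null-7435 (1.06) and PLK2null-1965 (0.94). PLK2null-1987 held the highest Nlrc5 value (5474) and B2m at 114491. p53null-7435 held the highest H2-D1, at 54583, and Tap1, at 7462. PLK2null-1965, with Psmb9 at 3317 and Tap2 at 7459, had B2m at only 35249.

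The balance of light to heavy chain was described by the ratio of the B2m to the H2-K1 value. Over the 41 tumors it ran from 0.995 in PLK2null-1963 to 4.16 in PLK2null-1986, with a median of 1.78. The 12 other highest values besides PLK2null-1986 were T11 at 4.05 and 11 Plk2-/-; p53-/- tumors, PLK2null-1977 at 4.13 down to PLK2null-7764 at 2.91. All 11 tumors with B2m above every p53-/- tumor lie at this end. Among them are PLK2null-7750, PLK2null-1984 and PLK2null-1986, the closest pairs of libraries, and the rest may be related as well. The tumors at this end may therefore stand for fewer independent ones. The claudin-low Plk2-/-; p53-/- tumors were near the bottom, with PLK2null-732 at 1.13, PLK2null-733 at 1.10 and PLK2null-743 lower still. PLK2null-7748 (1.21) and p53null-5317 (1.61), where both chains were low, were below the median. The ratio of values is not per length and shows only unequal change between tumors.

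**Figure D5:**
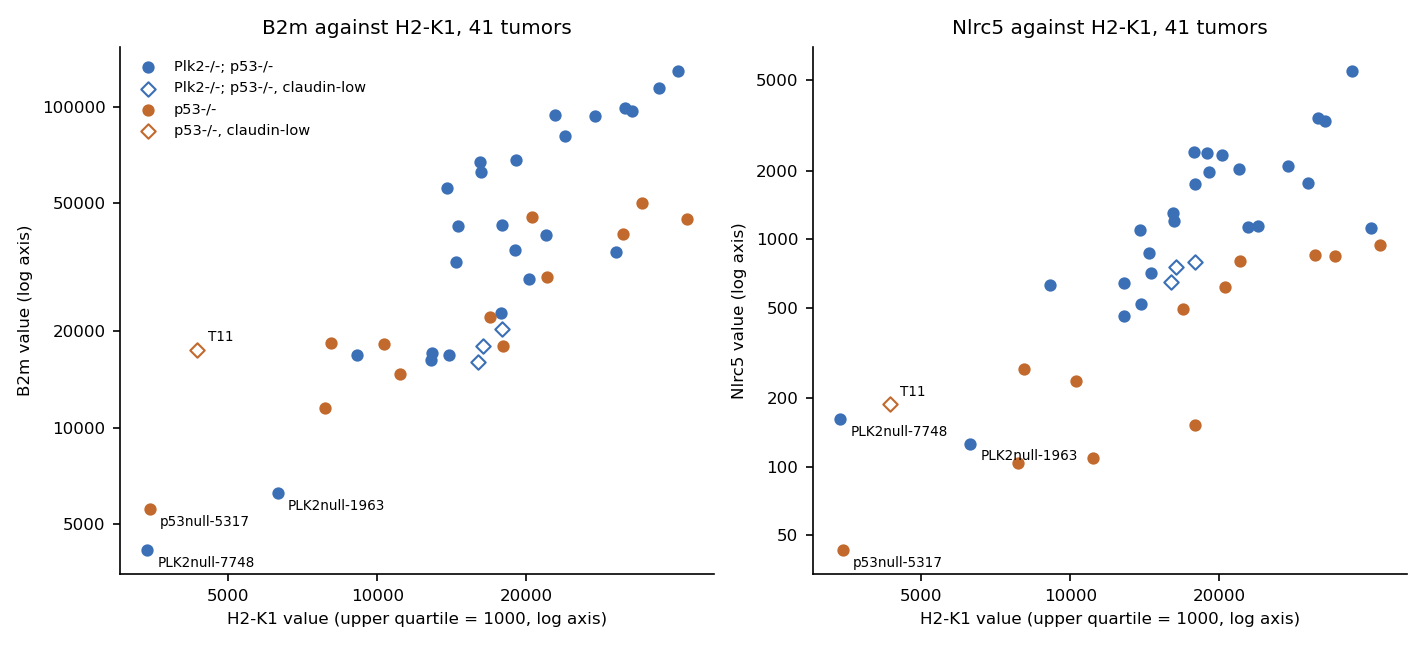
B2m (left) and Nlrc5 (right) against H2-K1 in each of the 41 tumors, on log axes in the deposited unit. PLK2null-7748 and p53null-5317 are low on both axes of the left plot, T11 has B2m at 17495 with H2-K1 at 4324, and most p53-/- points lie below the Plk2-/-; p53-/- points on the right.

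Across the 41 tumors the genes fell into sets that moved together. This is given as description, since tumors may share lineages and a possible batch cannot be told apart from genotype. Of 45 pairs the median Pearson r of log2 values was 0.572, the lowest 0.135 and the highest 0.962, for H2-K1 with H2-D1 (Spearman rho 0.952). Within a genotype that pair was at r = 0.949 over 28 and 0.984 over 13 tumors. Psmb8 with Psmb9 (0.914), Tap1 with Psmb8 (0.911) and Tap1 with Psmb9 (0.901) followed, the genes next to each other on chromosome 17. With the 2 tumors of most extreme Tap1 left out, T11 among them, Tap1 with Psmb9 was at 0.873.

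B2m followed Nlrc5 (r = 0.799) and H2-K1 (0.820) but not Tap2 (0.164), and Nlrc5 did not follow Tapbp (0.135). The B2m to Nlrc5 correlation was 0.785 within the Plk2-/-; p53-/- and 0.952 within the p53-/- tumors. Psmb10 with Nlrc5 rose from 0.311 over all tumors to 0.643 and 0.709 within the genotypes, whose Nlrc5 and Psmb10 medians lie in opposite order. H2-K1 with Nlrc5, shown in the scatter plot, was at 0.778.

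The 10 genes outside all lists with the pattern most like the mean of the members were Gm8909 (r = 0.944 over 41 tumors), Gm10499 (0.930), Igtp (0.891), Iigp1 (0.887), Gbp3 (0.881), Gm12250 (0.880), Dhx58 (0.874), Irgm2 (0.874), Gm11127 (0.867) and Oasl2 (0.865). Gm8909, Gm10499 and Gm11127 lie in the MHC on chromosome 17, 897, 874 and 788 kb from H2-D1. Igtp, Iigp1, Gbp3 and Irgm2 encode interferon-inducible GTPases. Gm10499 was also the gene most like H2-K1 (0.987) and most like B2m (0.878). After Gm10499, B2m was most like Lgals3bp (0.856) and AI607873 (0.839), and H2-K1 most like Gm8909 (0.939) and Rtp4 (0.851). Nlrc5 was most like 9330175E14Rik, with which it overlaps and may share reads, then Gm26797 (0.827) and F830016B08Rik (0.818).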

How the data were processed

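RNA of 41 tumors was measured, 1 library each. Read pairs were placed on mm10 by the authors (STAR 2.7.6a) and genes quantified by Salmon 1.4.0 (versions per the labels' processing notes, which also name Picard 2.22.4 and SAMtools). The deposited signal is the estimated count divided by each tumor's upper quartile, scaled to 1000. The gene annotation is not given in the sources used here. Between 77.9 and 80.5% of a tumor's values lay within 0.1 read of a whole read, too few for a count model.

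Genotype came from the labels and the claudin-low subtype from the study's clustering of the same libraries and the selection rule, and the labels do not give it. limma 3.58.1 in R 4.3.3 was run without trend on log2(value + 1), which understates changes of low genes, keeping genes whose mean reached 10, with Benjamini-Hochberg adjustment at 0.05. Other steps used matplotlib 3.10.9, pandas 2.3.3, scipy 1.17.1 and numpy 2.4.6 under Python 3.11.15. In data simulated for the genotype comparison, 179 of 200 changed and 8 unchanged genes of 16314 were called, and for claudin-low 165 of 200 and 12 of 16665. Each tumor was counted as 1 sample, which does not show that tumors are independent: PLK2null-7750, PLK2null-1984 and PLK2null-1986 differed by a median chi-square of 5.92 to 6.86 over genes, against 44.1 to 52.7 for the closest p53-/- pairs, and any shared origin was not tested. The 3-read floor takes in counting error alone.

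The members and gene lists were chosen with earlier results of these data known. Named genes are the 10 members, up to 4 called genes per list with the largest change, and the genes most like the members. Alternatives were other pseudocounts, filters, scalings and subsets of tumors.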

Additional observations from a re-analysis of the deposited data

Results flagged for a closer look

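Among the 7 primary Plk2-/-; p53-/- tumors, 2 values stood apart from the other 6 by more than Dixon's 95% limit for 7 samples. H2-K1 in PLK2null-7748 was at 3423 (ratio of gap to range 0.596) and H2-D1 in the same tumor was at 3384 (ratio 0.572). B2m, Psmb10 and Nlrc5 in PLK2null-7748 were also the lowest of the 7 but inside the limit, at ratios of 0.441, 0.498 and 0.340. The lowest and the highest tumor were looked at for each of the 10 genes, chance flags about 1 in 20 such groups, and H2-K1 and H2-D1 share reads, so the pair is not independent.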

How the results depend on the processing

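The number of the 10 genes called by genotype was 1. It was 2 (Nlrc5 and Psmb10) under TMM factors, quantile normalization and without the claudin-low tumors. With only the 7 primary tumors it was 0 (limma, 2 at an unadjusted p below 0.05), where fewer and possibly less related tumors entered. Leaving out each of the 41 tumors in turn, an alternative chosen after seeing the data, gave 1 to 2. Other pseudocounts, filters and a trend left it at 1. No alternative called a gene in the claudin-low comparison, and 1 gene had an unadjusted p below 0.05 under quantile normalization. With each tumor set against the median of its own genotype, there were 16 low values, 15 of them among the 21 and 1 (Psmb9 in p53null-5317) outside them. T11 then had 5, without H2-K1 and Nlrc5. B2m in p53null-5317 and Nlrc5 in p53null-10151, p53null-10152 and p53null-2153L were no longer low. With a pseudocount of 10 there were 21. No paired analysis was possible because the genotypes share no replicate numbers.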
